A study of Mus musculus with 8 samples.

Results

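The genes described here encode 10 proteins of muscle creatine and adenine nucleotide metabolism: the creatine kinases Ckm, Ckmt2 and Ckb, the creatine synthesis enzyme Gatm, the creatine transporter Slc6a8, the adenylate kinase Ak1, the AMP deaminases Ampd1 and Ampd3, the nucleotidase Nt5c2 and the adenylosuccinate synthase Adssl1. They were taken by name from the 23282 gene rows of each count table, and all 10 had a row and passed the filter on low counts, together with 13174 genes in all. The measurement was 3′ tag RNA sequencing (QuantSeq) of gastrocnemius muscle, a calf muscle made mostly of fast fibres, from C57BL/6 mice listed as 4 weeks old.

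By their titles, the 8 libraries are 2 RP, 3 Control and 3 Normal. RP and Control mice carried tumours grown for 2 weeks from 1000000 Lewis lung carcinoma cells, a mouse lung cancer line of the C57BL/6 strain, injected under the skin, and Normal mice received saline. RP mice then took a Paeonia lactiflora (peony) extract made with 30% ethanol, at 100 mg/kg daily by mouth for 2 weeks, while Control and Normal mice received distilled water. No label ties a library to a single animal, so p-values measure the spread between these libraries. The count tables of the 6 Control and Normal samples carry the other group's name, and the groups below follow the sample titles. If the table names are right, each Control against Normal change takes the opposite sign, and RP against Control and RP against Normal exchange places.

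Creatine kinase moves phosphate between ATP and creatine, so that phosphocreatine can refill ATP when a muscle contracts. Adenylate kinase makes ATP and AMP from ADP, and AMP is then removed by AMP deaminase, which turns it to IMP, or by 5′-nucleotidases, which take off its phosphate. Adenylosuccinate synthase starts the return of IMP to AMP, and with adenylosuccinate lyase and AMP deaminase it forms the purine nucleotide cycle. Creatine itself is made mainly in kidney and liver by Gatm and then Gamt, and muscle takes it up from blood through Slc6a8.

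The libraries held 9528011 to 12333767 counts, and all muscle markers were present in each. Haemoglobin transcripts took 0.862% and 3.83% of counts in RP, 1.41 to 1.61% in Control and 4.57, 9.56 and 19.7% in Normal libraries 1, 2 and 3. The summed level of 8 red-cell markers was 6397 and 27702 CPM (count per 1000000 counts of the TMM-scaled library) in RP, 9121 to 11636 CPM in Control and 29540 to 161628 CPM in Normal. All 7 red-cell markers tested were lower in Control than in Normal. The 10 neutrophil markers summed to 36.5 and 499 CPM in RP, 12.5 to 21.5 CPM in Control and 951 to 1969 CPM in Normal, and all 9 tested were lower in Control than in Normal, with Ltf at 0 in every Control library, Ngp at 0 to 2 counts and Mmp8 at 0 to 3 counts. Fast-fibre markers summed to 102096 and 99396 CPM in RP, 81799 to 97261 CPM in Control and 62789, 67868 and 91721 CPM in Normal. By log2 change, 4 of the 8 fast-fibre markers were higher and 4 lower in Control than in Normal, with a median of 0.0030. Of the 8, 2 were called higher and 0 lower (adjusted p under 0.05, edgeR), where 4.99% and 5.45% of all genes were. In RP against Normal 7 were higher and 1 lower, with a median of 0.20. There 1 was called higher, where 1.67% of all genes were. In bulk muscle, fewer cells of a type and less RNA per cell cannot be told apart.

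Control muscle had more Ak1 and Gatm transcript and less Ampd3 transcript than Normal muscle. These were 3 of the 10 genes called at an adjusted p under 0.05 (edgeR quasi-likelihood test, Benjamini-Hochberg over all genes tested), 2 higher and 1 lower, where 10.4% of all genes tested were called, 4.99% higher and 5.45% lower. In RP against Normal 1 of the 10 was called, Ak1, which was higher, where 2.5% of all genes were called and 1.67% were called higher. RP against Control called 0 of the 10, where 0.175% of all genes were called. At an unadjusted p under 0.05 that comparison held 1 of the 10, Gatm, where 8.98% of all genes did, and DESeq2 called 1 (Gatm) and limma-voom 0. The median log2 change of the 10 genes was 0.44 for Control against Normal, 0.12 for RP against Control and 0.23 for RP against Normal, beside 0.00043, -0.0038 and -0.037 over all genes tested. RP against Control and RP against Normal share the RP libraries, and each group enters 2 of the 3 comparisons.

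**Figure D1:**
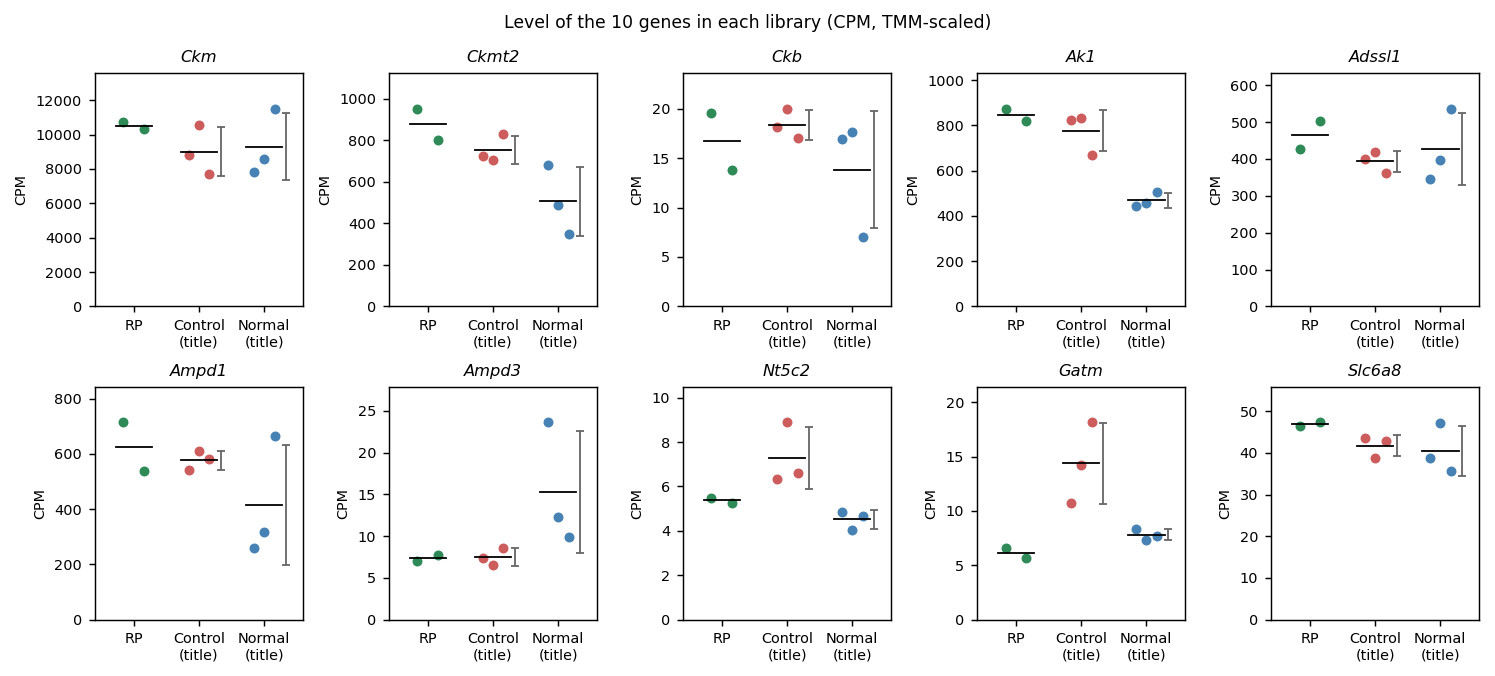
Level of each of the 10 genes (CPM, TMM-scaled, linear axis from 0) in the 8 libraries, grouped by sample title. Each point is a library, black lines are group means and grey bars are the SD of the groups of 3. All 3 Control points of Ak1 lie above all 3 Normal points, and Ckm overlaps between those groups.

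Ckm (mm10 chr7:19411094-19421583, plus strand, gene coordinates here and below from RefSeq and strands from GENCODE), the cytosolic muscle creatine kinase, had the most counts of the 10. Its level was 10705 and 10301 CPM in RP libraries, 8792, 10545 and 7688 CPM in Control libraries and 7828, 8578 and 11497 CPM in Normal libraries. The groups overlapped, both RP libraries lay above 2 of the 3 libraries of each other group, and the highest value of all was in Normal library 3. Ckm took 0.827 to 1.06% of all counts in a library. Control against Normal gave a log2 change of -0.046 ± 0.182 (SE), with a 95% interval of -0.44 to 0.35 (adjusted p = 0.906, edgeR). It was 0.22 ± 0.203 for RP against Control (adjusted p = 0.810, edgeR) and 0.18 ± 0.203 for RP against Normal (adjusted p = 0.723). The direction for Control against Normal turned when Normal library 3 was left out (0.13) or Control library 3 was left out (0.056).

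An antisense row, A930016O22Rik, overlaps the last exon of Ckm on the opposite strand and held 28.3 to 41.3 counts per 100 Ckm counts. The strand used in counting is not given in the sources used here, so reads of the pair cannot be told apart. With both rows summed, the log2 change of Ckm was -0.084 for Control against Normal (adjusted p = 0.820, edgeR), 0.29 for RP against Control (adjusted p = 0.728) and 0.21 for RP against Normal (adjusted p = 0.668).

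Ckmt2, the mitochondrial creatine kinase of striated muscle, had 952 and 804 CPM in RP, 723, 708 and 833 CPM in Control and 681, 490 and 349 CPM in Normal libraries. All RP and Control values lay above all Normal values, and RP overlapped Control. The fitted log2 difference was 0.57 ± 0.208 for Control against Normal (95% interval 0.13 to 1.02, adjusted p = 0.0974, edgeR) and 0.79 ± 0.229 for RP against Normal (95% interval 0.30 to 1.29, adjusted p = 0.0876). Both missed the threshold. Without Normal library 1, whose value was the nearest to the Control range, both passed it (adjusted p = 0.00520 and 0.00502, edgeR), as they did with DESeq2 (0.0462 and 0.0159) and with no filter on low counts (0.0264 and 0.00791). With the Hba-a1 covariate, which follows red-cell RNA, the Control against Normal value turned to -0.12. Hba-a1 was at 3741 and 14677 CPM in RP, 5229 to 6716 CPM in Control and 14878 to 81503 CPM in Normal. Because Normal overlapped neither other group, fits with this covariate, here and below, cannot tell red-cell RNA from group. RP against Control was 0.22 ± 0.230 (adjusted p = 0.836, edgeR).

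Ckb, the brain-type cytosolic kinase, was scarce in this muscle, with 72 to 206 counts in a library. It had 19.6 and 13.8 CPM in RP, 18.2, 20.0005 and 17.0 CPM in Control and 16.9, 17.6 and 6.99 CPM in Normal libraries. Normal library 3, the library with the most haemoglobin, was low, and the other 7 libraries lay between 13.8 and 20.0005 CPM. Its log2 change was 0.41 ± 0.282 for Control against Normal (adjusted p = 0.391, edgeR), -0.14 ± 0.315 for RP against Control (adjusted p = 0.940) and 0.27 ± 0.316 for RP against Normal (adjusted p = 0.729). The 3′ end of Ckb shares sequence with the pseudogenes Ckb-ps1 and Gm12892, so its counts are less certain.

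Within a library, Ckmt2 held 8.90 and 7.81 counts per 100 Ckm counts in RP, 8.22, 6.71 and 10.8 in Control and 8.70, 5.72 and 3.03 in Normal. Ckb held 0.183 and 0.134 counts per 100 Ckm counts in RP, 0.207, 0.190 and 0.221 in Control and 0.216, 0.205 and 0.0608 in Normal. These ratios do not depend on the scaling between libraries. The kinase ratios of Control and Normal overlapped. For Ckmt2 over Ckm the log2 difference was 0.66 for Control against Normal (exact permutation p = 0.3, two-sided), and for Ckb over Ckm it was 0.56 (exact permutation p = 0.6). With 3 against 3 libraries the exact test cannot go below 0.1, and with 2 against 3 it cannot go below 0.2, so none of the 9 ratio tests could reach 0.05.

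**Figure D2:**
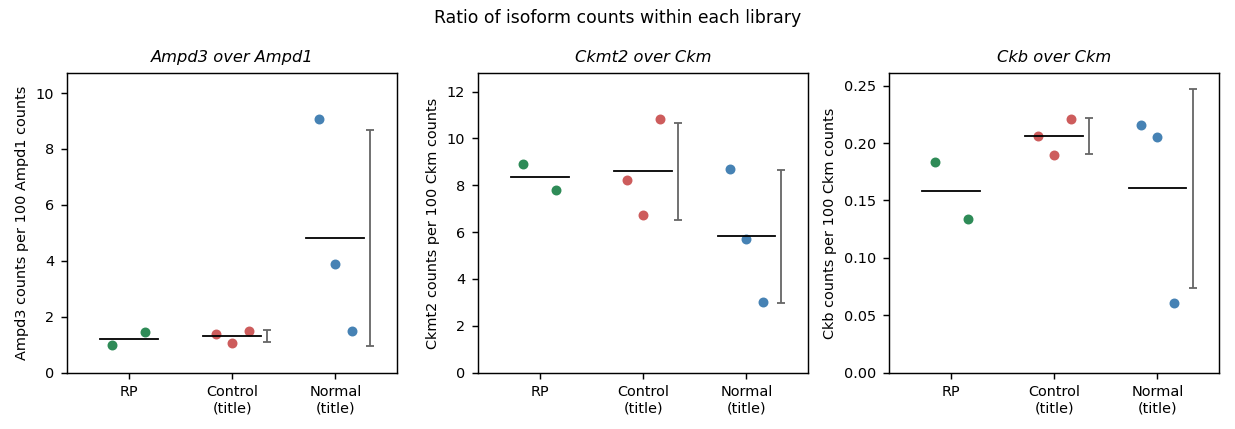
Counts of 1 isoform per 100 counts of another within each of the 8 libraries: Ampd3 per 100 Ampd1, Ckmt2 per 100 Ckm and Ckb per 100 Ckm. Points are libraries, black lines are group means and grey bars are the SD of the groups of 3. The Ampd3 ratio was 9.08 and 3.89 in Normal libraries 1 and 2 and 1.49 in Normal library 3, which lay just above the highest Control value of 1.48.

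Gatm (glycine amidinotransferase, mm10 chr2:122594473-122611277, minus strand) makes guanidinoacetate, the step that limits creatine synthesis. It had 6.57 and 5.66 CPM in RP, 10.8, 14.2 and 18.2 CPM in Control and 8.37, 7.37 and 7.67 CPM in Normal libraries, from 55 to 201 counts. The 3 groups did not overlap: RP was the lowest, Normal lay just above it, and Control was the highest. The log2 change was 0.88 ± 0.224 for Control against Normal (95% interval 0.40 to 1.36, adjusted p = 0.0246, edgeR), which passed the threshold. It was -1.23 ± 0.264 for RP against Control (95% interval -1.80 to -0.66, adjusted p = 0.103, edgeR), a 0.426-fold level that missed it. DESeq2 (adjusted p = 0.0127) and edgeR with no filter on low counts (adjusted p = 0.00909) called the RP against Control change. RP against Normal was -0.35 ± 0.265 (adjusted p = 0.540, edgeR).

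The Gatm call of Control against Normal was lost without Normal library 2 (adjusted p = 0.0846), Control library 2 (0.0644) or Control library 3 (0.143), and with the log2 level of Hba-a1 as a covariate (0.69, adjusted p = 0.387). The 8 fibro-adipogenic markers summed to 7581 and 7920 CPM in RP. Their sum was 8272 to 9213 CPM in Control and 5752 to 8570 CPM in Normal. By log2 change 6 of the 8 were higher in Control than in Normal. Of these, 5 were called higher, where 4.99% of all genes were. The 8 Schwann cell and nerve markers summed to 496 and 268 CPM in RP. Their sum was 727 to 1410 CPM in Control and 572 to 788 CPM in Normal. By log2 change 7 of the 8 were higher in Control than in Normal, with 1 called higher. In RP against Control 7 were lower, with 1 called lower, where 0.175% of all genes were called. The part of these cells in the Gatm levels was not tested.

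Slc6a8, the transporter that brings creatine into the fibre, varied least of the 10, with a 1.33-fold range over the 8 libraries. Its level was 46.6 and 47.4 CPM in RP, 43.6, 38.8 and 42.8 CPM in Control and 38.7, 47.1 and 35.6 CPM in Normal libraries. Both RP values lay above the Control values, and Control and Normal overlapped. For Slc6a8 the log2 change was 0.044 ± 0.146 for Control against Normal (95% interval -0.27 to 0.36, adjusted p = 0.886, edgeR), 0.17 ± 0.162 for RP against Control (adjusted p = 0.817) and 0.22 ± 0.162 for RP against Normal (adjusted p = 0.541).

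Ak1 (mm10 chr2:32621758-32635058, plus strand), the main cytosolic adenylate kinase of muscle, separated Normal muscle from both other groups. It had 873 and 820 CPM in RP, 825, 833 and 671 CPM in Control and 445, 456 and 504 CPM in Normal libraries. The lowest Control value was above the highest Normal value, and RP and Control overlapped. Control was 1.66-fold Normal, a log2 change of 0.73 ± 0.144 (95% interval 0.42 to 1.04, adjusted p = 0.00620, edgeR). RP was 1.81-fold Normal, a log2 change of 0.85 ± 0.158 (95% interval 0.51 to 1.20, adjusted p = 0.0121). RP against Control was 0.13 ± 0.159 (95% interval -0.22 to 0.47, adjusted p = 0.864, edgeR). With the Hba-a1 covariate both calls were lost (adjusted p = 0.0903 and 0.0958, edgeR) at log2 changes of 0.80 and 0.92, and RP against Normal was also lost without Normal library 2 (0.0587), RP library 1 (0.164) or RP library 2 (0.0518) and in a fit of those 2 groups alone (0.0761). Normal library 3 had a fast-fibre sum of 91721 CPM, within the Control range, and its Ak1 was 504 CPM, below every Control library. The part of fibre type or fibre share in Ak1 was not tested.

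**Figure D3:**
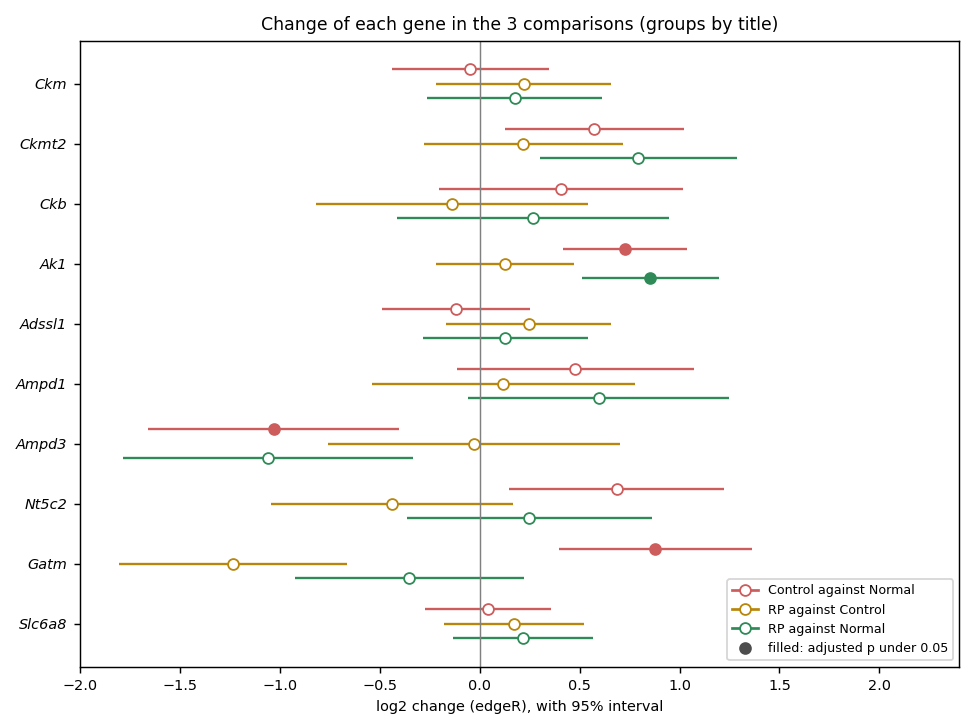
Log2 change (edgeR) of each of the 10 genes in the 3 comparisons, with 95% intervals. Filled points passed an adjusted p of 0.05: Ak1, Gatm and Ampd3 for Control against Normal, and Ak1 for RP against Normal.

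Ampd1, the AMP deaminase of muscle fibres, had 715 and 536 CPM in RP, 541, 609 and 580 CPM in Control and 261, 318 and 663 CPM in Normal libraries. Normal libraries 1 and 2 were low, and Normal library 3 lay above every Control library. The log2 change for Control against Normal was 0.48 ± 0.274 (95% interval -0.11 to 1.07, adjusted p = 0.291, edgeR). It passed only in 1 of the 18 other settings, without Normal library 3 (0.99, adjusted p = 0.00179, edgeR). RP against Normal was 0.60 ± 0.303 (adjusted p = 0.335), and 1.13 without that library (adjusted p = 0.00299, edgeR). The summed fast-fibre markers had the same order over the Normal libraries, 62789, 67868 and 91721 CPM. The part of fibre type or fibre share in Ampd1 was not tested.

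Ampd3 (mm10 chr7:110767790-110812409, plus strand), the isoform known from red cells, had 7.01 and 7.71 CPM in RP, 7.41, 6.50 and 8.59 CPM in Control and 23.7, 12.35 and 9.90 CPM in Normal libraries, from 65 to 263 counts. All Normal values lay above all RP and Control values, and the Normal libraries differed most among themselves. Control was 0.490-fold Normal, a log2 change of -1.03 ± 0.291 (95% interval -1.66 to -0.40, adjusted p = 0.0395, edgeR). RP against Normal was -1.06 ± 0.336 (95% interval -1.78 to -0.33, adjusted p = 0.120), and -1.27 without Normal library 3 (adjusted p = 0.0315, edgeR). RP against Control was -0.028 ± 0.338 (95% interval -0.76 to 0.70, adjusted p = 0.992).

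The Control against Normal call of Ampd3 held in 8 of 18 other settings. It was lost without Normal library 1 (-0.57, adjusted p = 0.119), Normal library 2 (0.0577), any single Control library (0.0893 to 0.131) or either RP library (0.0516 and 0.0519), with limma-voom (0.0678), with the replicate number as a block (0.0501) and in a fit of those 2 groups alone (0.0512). Red-cell markers were higher in Normal, and Normal library 1, which had the lowest red-cell sum of that group, had the highest Ampd3. With the Hba-a1 covariate the log2 change was -1.78 for Control against Normal (adjusted p = 0.0443, edgeR) and -1.69 for RP against Normal (adjusted p = 0.0887). The part of red cells or neutrophils in the Ampd3 level was not tested.

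Ampd3 held 0.980 and 1.44 counts per 100 Ampd1 counts in RP, 1.37, 1.07 and 1.48 in Control and 9.08, 3.89 and 1.49 in Normal libraries. The log2 difference of this ratio was -1.53 for Control against Normal (exact permutation p = 0.1, two-sided, the smallest it can give, 0.6 adjusted over the 9 ratio tests) and -1.65 for RP against Normal (exact permutation p = 0.2, also the smallest). Normal library 3, at 1.49, was next to Control library 3, at 1.48.

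**Figure D4:**
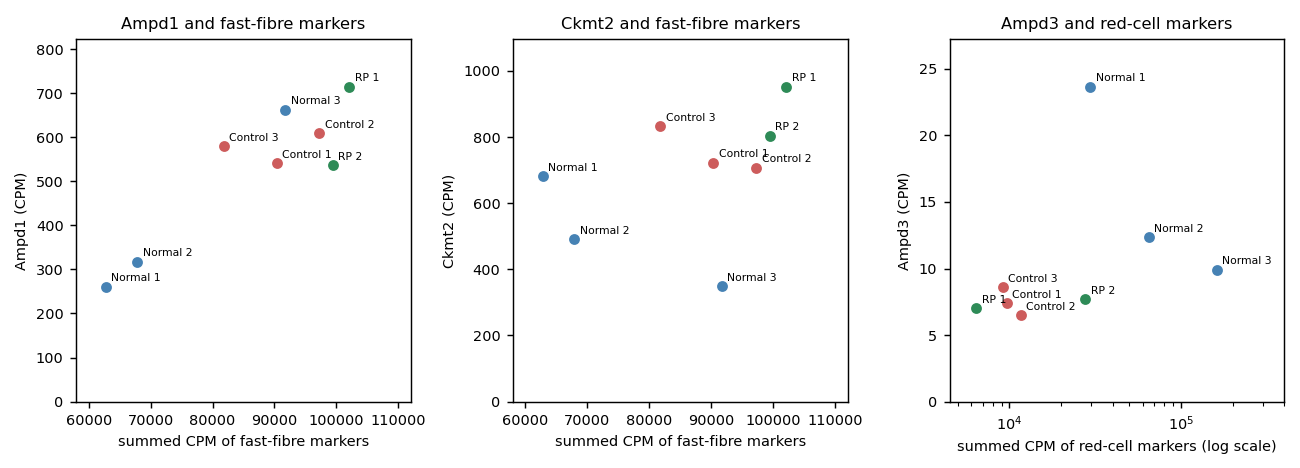
Ampd1 and Ckmt2 against the summed fast-fibre markers, and Ampd3 against the summed red-cell markers (log axis), in CPM with 1 point for each of the 8 libraries. Normal libraries 1 and 2 have the lowest fast-fibre sums and the lowest Ampd1. Within Normal, Ckmt2 is highest in library 1, which has the lowest fast-fibre sum, and lowest in library 3, which has the highest. Ampd3 is highest in Normal library 1, which has the lowest red-cell sum of its group. The part of fibres or red cells in these levels was not tested.

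Nt5c2, a cytosolic nucleotidase that acts mainly on IMP and GMP, had 42 to 89 counts in a library. Its level was 5.50 and 5.24 CPM in RP, 6.35, 8.90 and 6.60 CPM in Control and 4.86, 4.02 and 4.66 CPM in Normal libraries. The 3 groups did not overlap, with Control the highest and Normal the lowest. None of the changes passed the threshold: 0.69 ± 0.250 for Control against Normal (adjusted p = 0.0988, edgeR), -0.44 ± 0.281 for RP against Control (adjusted p = 0.696) and 0.25 ± 0.284 for RP against Normal (adjusted p = 0.718). Counts this low leave a wide interval, 0.15 to 1.22 for Control against Normal.

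Adssl1, the muscle isozyme of adenylosuccinate synthase, had 428 and 504 CPM in RP, 399, 419 and 361 CPM in Control and 346, 397 and 536 CPM in Normal libraries. RP lay above Control, and Normal spanned both groups. The log2 change was -0.12 ± 0.172 for Control against Normal (adjusted p = 0.717, edgeR), 0.25 ± 0.191 for RP against Control (adjusted p = 0.760) and 0.13 ± 0.191 for RP against Normal (adjusted p = 0.796).

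Over the 10 genes, the 3 Control values lay wholly above or below the 3 Normal values in 5 (Ak1, Gatm, Ampd3, Ckmt2 and Nt5c2), where 31.3% of all genes tested did. RP and Control did not overlap in 4 (Gatm, Nt5c2, Adssl1 and Slc6a8), where 31.7% of all genes did not, and RP and Normal did not overlap in 5 (Ak1, Gatm, Ampd3, Ckmt2 and Nt5c2), where 30.8% did not. The spread within Normal was the widest for Ampd1 (coefficient of variation 52.6%, against 5.90% in Control) and Ampd3 (48.0%, against 14.0% in Control).

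The start regions of Ak1, Gatm and Ampd3, the genes called in Control against Normal, are shown because their transcripts separated the groups. Sequences are RefSeq's on GRCm38.p6, from 250 bases before to 50 after a listed start, 5′ to 3′ on the gene's strand, with position 0 the first transcribed base. Capitals mark matches on either strand to the E-box (CANNTG), the TATA box (TATAAA), the FoxO core (TGTTTAC), the GATA core (AGATAA), the MEF2 site or the CArG box.
Ak1, listed start 2, chr2:32625187-32625486, plus strand: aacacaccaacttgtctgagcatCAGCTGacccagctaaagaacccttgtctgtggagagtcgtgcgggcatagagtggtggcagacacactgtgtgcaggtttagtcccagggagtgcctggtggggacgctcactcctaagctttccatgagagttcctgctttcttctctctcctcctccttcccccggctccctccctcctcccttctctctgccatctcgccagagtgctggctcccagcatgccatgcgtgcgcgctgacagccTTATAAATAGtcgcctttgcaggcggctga
Gatm, chr2:122611228-122611527, minus strand: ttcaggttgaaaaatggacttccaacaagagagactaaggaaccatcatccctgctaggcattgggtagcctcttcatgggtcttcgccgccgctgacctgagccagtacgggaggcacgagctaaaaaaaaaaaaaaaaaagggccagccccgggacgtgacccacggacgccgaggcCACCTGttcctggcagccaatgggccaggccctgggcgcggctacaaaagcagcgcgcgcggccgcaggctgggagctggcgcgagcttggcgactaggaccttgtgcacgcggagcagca
Ampd3, listed start 3, chr7:110773386-110773685, plus strand: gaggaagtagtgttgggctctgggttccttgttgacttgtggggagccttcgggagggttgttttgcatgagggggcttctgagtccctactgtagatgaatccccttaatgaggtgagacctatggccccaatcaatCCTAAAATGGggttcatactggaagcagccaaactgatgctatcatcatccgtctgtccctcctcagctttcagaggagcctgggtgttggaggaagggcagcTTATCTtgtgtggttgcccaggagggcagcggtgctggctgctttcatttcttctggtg
For Ak1 and Ampd3, only the listed start shown held a match other than an E-box. The Ak1 window holds an E-box at -227 and overlapping TATA box and MEF2 matches at 21 and 20, after the listed start. The other listed starts of Ak1 hold 1 to 3 E-boxes each and no other match. In Gatm the only match is an E-box at -71. The Ampd3 window holds a CArG box at -112 and a GATA match, read on the opposite strand, at -9, and the other starts of Ampd3 hold E-boxes. An E-box is in 72.3% of all 32851 promoters of that length, a TATA box in 13.6%, a FoxO core in 3.65%, a GATA core in 11.2%, a MEF2 site in 3.19% and a CArG box in 1.63%. The data do not say which start was used.

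Of the other genes of these pathways, 57 of the 64 listed were tested. In Control against Normal 2 were called higher (Gamt and Prkag3) and 3 were called lower (Gda, Nt5c3 and Entpd1). Of all genes 10.4% were called, so the 5 of 57 are a share near the background. In RP against Normal 3 were called higher (Gamt, Prkag3 and Prkab2) and 0 lower, where 2.5% of all genes were called. RP against Control called 0 of the 57 by edgeR, where 0.175% of all genes were called. At an unadjusted p under 0.05 (edgeR) it held 7 of the 57, where 8.98% of all genes did. DESeq2 called 2 (Nt5dc3 and Gda), beside 112 of all 13174 genes, and limma-voom called 0. The 12 other adenylate, guanylate and nucleoside diphosphate kinases, the 3 other purine cycle genes and the 12 purine synthesis genes tested had 0 called by edgeR, DESeq2 or limma-voom in any comparison. At an unadjusted p under 0.05, Control against Normal held 3, 1 and 2 genes of these 3 lists, where 26.3% of all genes did, RP against Control 1, 0 and 1, where 8.98% did, and RP against Normal 1, 0 and 1, where 17.1% did.

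Gamt, which methylates guanidinoacetate to creatine, had 19.3 and 11.8 CPM in RP, 18.4, 21.5 and 19.3 CPM in Control and 5.13, 4.12 and 1.26 CPM in Normal libraries, with only 13 counts in Normal library 3. All RP and Control values lay above all Normal values. The log2 change was 2.48 ± 0.351 for Control against Normal (adjusted p = 7.59e-04, edgeR) and 2.14 ± 0.379 for RP against Normal (adjusted p = 0.00997), both lost with the Hba-a1 covariate (1.29 and 1.03, adjusted p = 0.130 and 0.242). The RP against Normal call was also lost without RP library 1 (0.170) and in a fit of those 2 groups alone (0.0514). RP against Control was -0.35 ± 0.353 (adjusted p = 0.833, edgeR). Gamt and Gatm, the consecutive steps of creatine synthesis, were both higher in Control than in Normal, while in RP libraries Gatm was at 6.57 and 5.66 CPM, below Normal, and Gamt was above Normal.

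Prkag3, the AMP-binding gamma subunit of AMPK found in fast muscle, had 124 and 101 CPM in RP, 139, 160 and 119 CPM in Control and 27.5, 18.7 and 36.3 CPM in Normal libraries. The lowest RP or Control value was 101 CPM and the highest Normal value 36.3 CPM. The log2 change was 2.34 ± 0.220 for Control against Normal (adjusted p = 4.21e-05, edgeR) and 2.03 ± 0.234 for RP against Normal (adjusted p = 5.47e-04), called in 18 of 18 other settings in both. The AMPK beta subunit gene Prkab2 had 250.5 and 206 CPM in RP and 134 to 141 CPM in Normal, a log2 change of 0.73 ± 0.156 (adjusted p = 0.0265, edgeR), which held in 11 of 18 other settings. That call was lost without RP library 1 (0.289), Normal library 2 (0.0845), Control library 1 (0.0627) or Control library 3 (0.0547), with the block (0.0911) or the covariate (0.239) and in a fit of those 2 groups alone (0.121). The other 7 of 9 AMPK subunit and kinase genes were not called in any comparison by edgeR.

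Of the 57 genes, 3 were called lower in Control than in Normal, where 5.45% of all genes were. They came from the list of other nucleotidases (1 of 8 tested) and the purine salvage list (2 of 12 tested). Gda, guanine deaminase, had 68.3 and 116 CPM in RP, 45.5, 46.4 and 52.9 CPM in Control and 174, 138 and 132 CPM in Normal libraries. RP lay between the other groups. Its log2 change was -1.62 ± 0.194 for Control against Normal (adjusted p = 2.39e-04, edgeR; 18 of 18 other settings), 0.93 ± 0.211 for RP against Control (adjusted p = 0.133) and -0.69 ± 0.215 for RP against Normal (adjusted p = 0.114). RP against Control passed in 4 of 18 other settings, with no filter on low counts (adjusted p = 0.00266), with DESeq2 (0.00733), in a fit of those 2 groups alone (0.0496) and without RP library 1 (1.26, 0.0334). RP against Normal passed in 3, with no filter (0.0300), with DESeq2 (0.0438) and without RP library 2 (-1.12, 0.0371). Nt5c3, a pyrimidine nucleotidase known from red cells, was at 94.4 to 101 CPM in Control and 143 to 185 CPM in Normal, a log2 change of -0.72 ± 0.150 (adjusted p = 0.00867, edgeR), lost without Control library 3 (0.0541) and with the covariate (-0.37, 0.392). Entpd1, an ectonucleotidase of vessels and leukocytes, was at 12.2 to 16.6 CPM in Control and 17.8 to 28.7 CPM in Normal (-0.71 ± 0.206, adjusted p = 0.0454, edgeR), a call that held in 5 of 18 other settings and, with a library left out, without Normal library 3 alone. Its 3′ end shares sequence with 52 other genes. Red-cell and neutrophil markers were also lower in Control than in Normal, and their part in the levels of these genes was not tested.

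**Figure D5:**
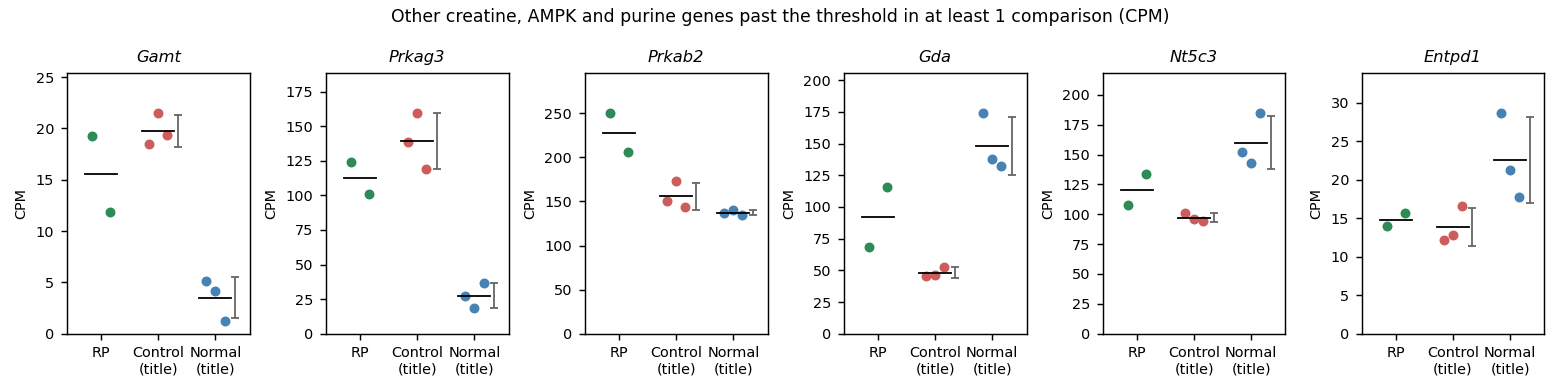
Level (CPM, TMM-scaled, linear axis from 0) of the 6 other pathway genes past the threshold in at least 1 comparison, in the 8 libraries grouped by title. Points are libraries, black lines are means and grey bars are the SD of the groups of 3. Gamt and Prkag3 are lowest in Normal, and Gda is highest in Normal.

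Among the remaining named genes, Ampd2, the AMP deaminase of non-muscle cells, had a log2 change of 0.65 for Control against Normal (adjusted p = 0.170, edgeR), Adsl one of -0.070 (adjusted p = 0.845) and Adss one of 0.087 (adjusted p = 0.841). Adsl and Adss 3′ ends share sequence with 182 and 7 other genes. Ckmt1 had at most 1 count in a library and Nt5c1a 0 counts in all 8, so neither was tested.

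The genes whose profile over the 8 libraries lay nearest to those of 4 of the 10 were ranked by the root mean square difference of centred log2 CPM. Nearest to Ckm were Zcrb1 (0.049), Atp2a1 (0.068) and H2-Ke6 (0.069), of which Zcrb1 and H2-Ke6 share 3′ sequence with Gm9202 and Gm20427. Nearest to Ampd1 were Cacnb1 (0.12), Dhrs7c (0.17) and Gadd45g (0.18). Nearest to Ampd3 were Prg4 (0.17), Scn7a (0.18) and Cd36 (0.21), and nearest to Nt5c2 were Cdkn1c (0.14), Emc9 (0.14, its 3′ end shared in part with 3 other genes) and Homer2 (0.15). Exons of Rabep2, Tpr and Psme1 lie on the opposite strand at the 3′ ends of Atp2a1, Prg4 and Emc9. With the counting strand not given, reads of these pairs cannot be told apart. The ranking covered 5517 or 5518 genes with a mean of at least 20 CPM, all from the same 8 libraries.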

How the data were processed

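Messenger RNA of gastrocnemius muscle was measured by 3′ tag sequencing (QuantSeq) from 500 ng of total RNA. Bowtie2, edgeR and mm10 are listed, without versions, in the submitters' processing notes, and the counting tool and strand are not given in the sources used here. The deposited files hold raw counts per gene symbol, not normalized by the authors, for 1 library each. Groups follow the sample titles.

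Counts were scaled with TMM, filtered with filterByExpr (13174 genes) and tested with edgeR 4.0.16 in R 4.3.3 (glmQLFit and glmQLFTest, all 8 libraries, two-sided, Benjamini-Hochberg over all genes tested, threshold 0.05). CPM are TMM-scaled, and the SE is the log2 change over the square root of F. The test was checked on simulated counts drawn with the same spread setting for every gene and group. That check did not cover spreads that differ between groups. Within-library ratios had 0.5 counts added and an exact permutation test (scipy 1.17.1). Alternatives, in part chosen after seeing the data, were other normalizations and filters, DESeq2 1.42.0, limma-voom (limma 3.58.1), a replicate block, an Hba-a1 covariate, removal of haemoglobin and ribosomal rows, fits of 2 groups and leaving out each library.

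The 10 genes, the pathway and marker lists and the tests were chosen with earlier results of these data known. Beside the 10 genes, named genes were those of the pathway lists past the threshold in any comparison, up to 4 a list by adjusted p, 6 more whatever they did (Ampd2, Gamt, Ckmt1, Adss, Adsl and Nt5c1a) and the 3 nearest profiles of Ckm, Ampd1, Ampd3 and Nt5c2. Promoter sequences are RefSeq's (GRCm38.p6). Depth was 9528011 to 12333767 counts a library.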

Additional observations from a re-analysis of the deposited data

How the results depend on the processing

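Control against Normal called 1 of the 10 genes with the log2 Hba-a1 covariate, and 1 to 4 with a Normal or Control library left out. The main result was 3. Over all 13174 genes, 305 were called with that covariate and 1376 in the main fit. Without Normal library 2, Control library 2 or Control library 3, 1 of the 10 was called, beside 807, 844 and 604 of all genes. RP against Control called 1 with no filter and 1 with DESeq2, and 0 with any Normal or Control library left out. Over all genes, 204 of 17852 were called with no filter and 112 of 13174 with DESeq2, beside 23 in the main fit. RP against Normal called 3 with no filter, 2 with DESeq2, 0 with the Hba-a1 covariate and 0 in a fit of those 2 groups. It called 0 to 3 with a Normal library left out. Over all genes, 718 of 17852 were called with no filter. Of 13174 genes, 663 were called with DESeq2, 58 with the covariate and 101 in the 2-group fit, beside 330 in the main fit. Leaving out Normal library 2 gave 138 such calls, and leaving out Normal library 3 gave 582. The replicate number as a block gave 2, 0 and 1 calls in these comparisons, and 1218, 17 and 262 over all 13174 genes. Libraries with the same number correlated by -0.068 to 0.080 in deviations from group means, so the numbers were not taken to pair them. Of 543 recomputed values for the 10 genes, 493 kept direction and side of the threshold, 20 lost the call, 12 gained it and 18 changed direction; the cause was not tested.
With the Hba-a1 covariate the sign of the log2 change turned, for Control against Normal, to 0.31 for Ckm, -0.12 for Ckmt2, -0.51 for Ckb, -0.021 for Slc6a8, 0.44 for Adssl1, 0.37 for Adsl and -0.35 for Adss. It turned to 0.086 for Ampd3 in RP against Control, and in RP against Normal to -0.57 for Ckb, 0.10 for Ampd2 and -0.25 for Adss. With the replicate block Adss turned to -0.032 in RP against Control. With a library left out, Control against Normal ran from -0.16 to 0.13 for Ckm, -0.045 to 0.17 for Slc6a8, -0.25 to 0.076 for Adssl1, -0.26 to 0.082 for Adsl and -0.11 to 0.33 for Adss. RP against Control ran from -0.11 to 0.080 for Ampd3, -0.10 to 0.31 for Ampd1, -0.42 to 0.094 for Ckb and -0.039 to 0.11 for Adss. RP against Normal ran from -0.0017 to 0.34 for Adssl1, -0.031 to 0.50 for Ckb, -0.25 to 0.15 for Ampd2, -0.15 to 0.22 for Adsl and -0.045 to 0.36 for Adss. The log2 ratio ran from -0.40 to 0.15 for Ampd3 over Ampd1 and -0.18 to 0.17 for Ckmt2 over Ckm in RP against Control, and for Ckb over Ckm from -0.037 to 0.88 in Control against Normal and -0.43 to 0.48 in RP against Normal. None of these changes passed the threshold in the main test. Low counts limit Ckb, Gatm, Ampd3 and Nt5c2.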
